A study of Mus musculus with 16 samples.

Results

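The transcripts of 4 wild-type (WT) mouse hearts taken 2 weeks after a myocardial infarction (MI) were set against those of 4 WT sham-operated hearts. These are 8 of the 16 libraries of the series. Per the labels, the left anterior descending coronary artery was ligated permanently, and RNA was extracted 2 weeks after the surgery. All mice were adults of about 3 months, and the labels give no sex. The other 8 libraries come from hearts labelled as overexpressing (OE) ERBB2, 4 infarcted (OE MI) and 4 sham (OE sham). The labels give the tissue as heart, without saying whether scar, border or remote muscle was taken. They state neither the promoter nor the cell type that drives ERBB2. The OE libraries served here to estimate the spread and to test whether the infarct difference was the same in both genotypes. Per the series design text, each group holds 4 animals. Of 24421 genes in the table, 14298 had a normalized value of at least 10 in at least 4 of the 16 libraries and were tested. The polyA libraries of WT infarcted hearts held 12747697 to 14297128 reads, and those of WT sham hearts 11939093 to 14886191.

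Permanent ligation of a coronary artery kills the heart muscle downstream of it, and the dead muscle is replaced by a scar. Inflammatory cells clear the debris in the first days. Fibroblasts then turn into matrix-producing cells that lay down collagens and matricellular proteins, which steer cell behaviour rather than bear load. At 2 weeks the mouse scar is known to be still maturing, with collagen cross-linking under way. In the muscle that survives, natriuretic peptides and fetal isoforms of contractile proteins are classic stress markers, and enzymes of fatty acid oxidation and respiration are often lower.

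Transcripts of the lung differed between the libraries and are given first. Sftpc, the surfactant protein C gene of alveolar type 2 cells (chr14:70520941-70524081), had 3, 4595, 1092 and 3815 reads in WT infarcted replicates 1 to 4, against 1, 0, 3 and 2 reads in WT sham replicates 1 to 4. A count of 0 does not show absence, because an expected count of up to about 3 reads can give it. Infarcted replicates 2 to 4 thus held reads of this lung gene, and infarcted replicate 1 did not stand apart from the sham libraries in it. The 20 lung epithelial markers summed to 852 to 14093 normalized reads in infarcted and 560.4 to 832 in sham libraries (exact permutation p = 0.0286, two-sided, the smallest that 4 against 4 allows). Scgb1a1, a club cell gene of the airway, reached 1234 in infarcted replicate 2 but 2.41, 1.09 and 0 in infarcted replicates 1, 3 and 4, against 0 to 5.35 in sham libraries. The 3 libraries with Sftpc reads thus differed in their airway reads as well. In OE infarcted replicates 1 to 4 Sftpc had 6, 3520, 1185 and 0 reads, against 0 to 2 in OE sham libraries. Because lung RNA went with the infarct, most gene lists below are given with the counts of 2 further fits. One has log2 sums of the lung epithelial and of the thymocyte markers as covariates (the lung terms). The other leaves out every library of more than 3 Sftpc reads; it holds 1 WT infarcted library, replicate 1, which is assumed to vary like the libraries of the other groups. A fit without the lung and thymocyte genes themselves called 1002 genes, against 1008 with them.

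**Figure D1:**
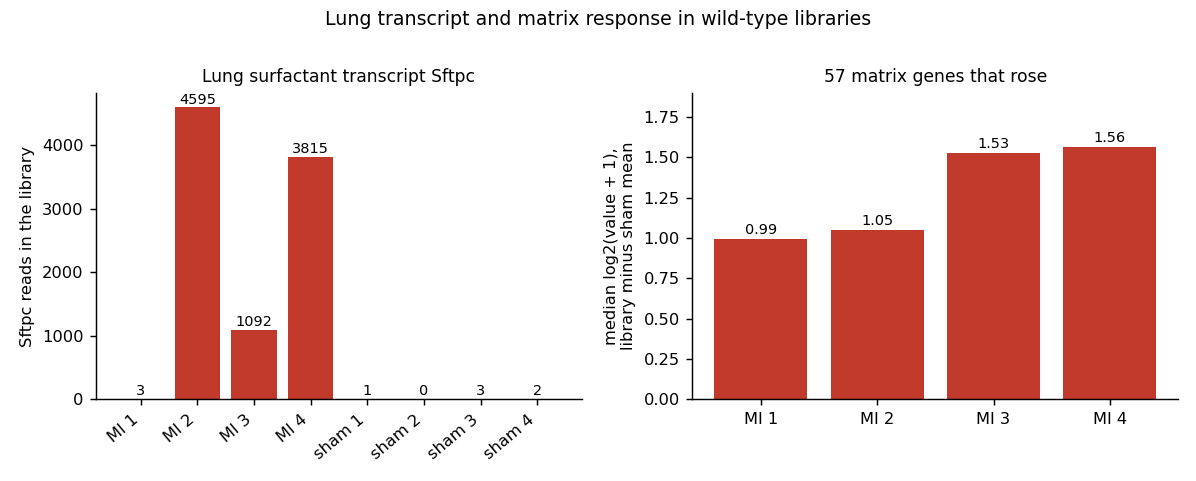
Left, reads of the lung gene Sftpc in each WT library (bars from 0, with infarcted libraries in red and sham libraries at the right, where all bars are 3 reads or fewer). Right, for each WT infarcted library, the median over 57 matrix genes of its log2(value + 1) minus the mean of the 4 sham libraries: 0.99 in replicate 1, which had 3 Sftpc reads, and 1.05 to 1.56 in the other 3.

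Other differences between the libraries touch these results as well. Xist, which is transcribed from the inactive X chromosome of female cells, stood above 1000 normalized reads in 2 of 4 infarcted and 1 of 4 sham libraries. Each description carries an RA number whose meaning is not stated; it is 14 or higher in infarcted replicate 4 and sham replicates 3 and 4, and 12 or lower in the other 5 WT libraries. On the first principal component of the 8 WT libraries, with 39.2% of the variance, infarcted replicates 2 to 4 lay at 36.0 to 43.6 and infarcted replicate 1 at -15.5, within the sham range of -43.3 to -13.9. The second, with 16.1%, had the 3 libraries of RA number 14 and above at -30.9 to -15.45 and the other 5 at 5.74 to 24.6. Erbb2, the receptor gene that marks the other genotype, stood at 222, 276, 204 and 307 in infarcted and 259.6, 248, 245 and 259 in sham libraries (exact permutation p = 1, two-sided).

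Among genes past the threshold, more were higher than lower after infarction. Over all tested genes 54.4% had a negative difference. Without overlap between the groups, 1112 genes were higher and 1120 lower. At an adjusted p below 0.05 (limma on log2(value + 1) over all 16 libraries, Benjamini-Hochberg), 709 genes were higher and 299 lower in WT infarcted hearts, 4.96% and 2.09% of the 14298 tested and 7.05% together. Of these, 263 higher and 5 lower genes changed at least 2-fold, 1.84% and 0.035% of those tested. The shares of 4.96% and 2.09% are the background for the list counts below. The authors' deposited table calls 1434 of the tested genes, 932 higher and 502 lower, and 987 of them were called here in the same direction. When libraries were instead scaled to equal totals, the median log2 fold change of all genes was 0.04, against -0.03 as deposited, and the split was 977 higher (6.83%) and 70 lower (0.49%). Infarcted replicate 1 lay above all 4 sham libraries for 621 of the 709 higher genes, where 24% of all tested genes did so, and below all 4 for 278 of the 299 lower genes, where 24.6% did. These genes were called with replicate 1 among the libraries, so its side is a description. The median difference of replicate 1 from the sham mean was 0.51 for the higher genes, against 0.81 over all 4 infarcted libraries, and -0.22 against -0.32 for the lower genes.

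The counts depended on single libraries and on how lung RNA was treated. With the lung terms, 20 genes were higher (0.14%) and 1 lower (0.00699%). The lung marker sums were higher in every WT infarcted than in every WT sham library, by little in infarcted replicate 1 (852, against up to 832 in sham). Calls lost with the lung terms therefore cannot be told apart from lost precision. The SE of Ctsk was 0.18 with these terms and 0.13 without, and that of Postn 0.27 and 0.19. With the libraries of at most 3 Sftpc reads, 23 were higher (0.161%) and 3 lower (0.021%). With the 5 WT and the OE libraries of RA number 12 or lower, 101 were higher (0.706%) and 11 lower. In the fit with the lung terms, 709 of the 709 higher genes still had a positive difference and 299 of the 299 lower genes a negative one. With at most 3 Sftpc reads, where replicate 1 alone stands for the WT infarcted hearts, 707 and 298 did. These genes were called from the same libraries, so their signs are a description. Without WT infarcted replicates 1, 2, 3 and 4 in turn the fit called 1128, 504, 257 and 410 genes higher and 743, 68, 42 and 146 lower. Without WT sham replicates 1, 2, 3 and 4 in turn it called 461, 242, 549 and 402 higher and 143, 34, 168 and 62 lower. A set of 10 genes passed both with the lung terms and with the libraries of at most 3 Sftpc reads: Col1a2, Col3a1, Col5a2, Postn, Sparc, Spp1, Aspn, Ctsk, Mmp2 and Sfrp2. All 10 were higher after infarction, and 9 of them belong to the matrix lists described next. By edgeR's quasi-likelihood test on the recovered reads, 118 of the 132 members of the gene lists called here also passed. The 14 that did not were Comp, Fbln1, Adamts4, Serpine2, Kcnd3, Kcnh2, Pdhb, Idh3a, Suclg1, Ak1, Cxcl10, H2-Ab1, Bub1b and Ciart, with edgeR adjusted p of 0.0503 to 0.0891.

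Fibrillar collagen genes rose together. Col3a1, the chain of type III collagen (chr1:45311538-45349706), had 20998, 16115, 34393 and 30624 normalized reads in infarcted replicates 1 to 4, against 4934, 4609.5, 6764 and 5109.9 in sham replicates 1 to 4. Every infarcted library lay above every sham library, by more than 2-fold (log2 fold change 2.21, SE 0.23, adjusted p = 0.000196). In a bulk sample, more cells of a type and more RNA per cell cannot be told apart. Col1a1 and Col1a2 encode the 2 chains of type I collagen. Col1a1 had 7363, 5204, 15327 and 12819.8 in infarcted and 2373, 2045, 3307 and 2472 in sham libraries (log2 fold change 1.89, SE 0.27, adjusted p = 0.00115). Col1a2 had 9546, 6640.4, 19002 and 13302 in infarcted and 3376, 2903, 3345 and 2802 in sham libraries (log2 fold change 1.86, SE 0.24, adjusted p = 0.000758). Neither overlapped between the groups. Col5a2, which sets fibril diameter with the type I chains, had 2045, 2098, 3725 and 3035 in infarcted and 814, 726, 942 and 777 in sham libraries (log2 fold change 1.70, SE 0.18, adjusted p = 0.000196). Col11a1, a minor fibrillar chain of cartilage, rose further, with 89.2, 71.3, 214 and 85.3 in infarcted and 14.2, 8.94, 8.04 and 9.62 in sham libraries (log2 fold change 3.26, SE 0.44, adjusted p = 0.00102). Its highest library was infarcted replicate 3, and the lowest infarcted library still lay at 71.3, above the sham maximum of 14.2.

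Of the 19 tested fibrillar and network collagens, 15 were higher and 0 lower, and 19 had a positive difference, against 45.6% of all tested genes. In 13 of the 19 every infarcted library lay above every sham library, where 7.78% of all tested genes did. Their median log2 fold change was 1.10, beside -0.03 for all tested genes, and that of infarcted replicate 1 alone was 0.90. With the lung terms 3 of the 19 passed, with at most 3 Sftpc reads 4, and for RA numbers 1 to 12 alone 10. The 4 that did not pass were Col5a3 (log2 fold change 0.99, adjusted p = 0.0649), Col4a1 (log2 fold change 0.73, adjusted p = 0.0638), Col4a2 (log2 fold change 0.55, adjusted p = 0.121) and Col8a1 (log2 fold change 0.68, adjusted p = 0.0747). Col4a1 and Col4a2 encode the main chains of basement membranes. Col8a1, a network collagen of vessel walls, had 1286, 650.2, 1017 and 1701 in infarcted and 651, 560.4, 699.8 and 848 in sham libraries. Infarcted replicate 2 lay inside the sham range for Col8a1, and the other 3 above it. Col6a5, a type VI chain outside the list, was among the 10 largest rises, with 317, 132, 421 and 167 in infarcted and 23.2, 23.0, 8.04 and 55.6 in sham libraries (log2 fold change 3.32, SE 0.58, adjusted p = 0.00453).

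Genes that process and cross-link collagen rose with it in part: 9 of 19 were higher and 0 lower, with a median of 0.49, and 0.26 in infarcted replicate 1. Lox, the lysyl oxidase that starts collagen cross-links, had 399, 543, 1204 and 728 in infarcted and 80.1, 80.4, 111 and 169 in sham libraries (log2 fold change 2.64, SE 0.36, adjusted p = 0.00102). Adamts2 and Bmp1, which cut the ends off procollagen, changed less. Adamts2 had 1404, 1320.2, 1847 and 1859 in infarcted and 735, 641, 835 and 689 in sham libraries (log2 fold change 1.14, SE 0.16, adjusted p = 0.00119). Bmp1 had 1536, 1289, 2170.4 and 1941 in infarcted and 998, 1037, 1105 and 1039 in sham libraries (log2 fold change 0.70, SE 0.12, adjusted p = 0.00431). The groups overlapped for none of the 3. The prolyl hydroxylase subunit P4ha3 had the largest difference of the list, with 45.8, 29.6, 72.9 and 72.7 in infarcted and 9.04, 5.11, 4.60 and 2.14 in sham libraries (log2 fold change 3.21, SE 0.68, adjusted p = 0.0138), while its relatives P4ha1 (log2 fold change 0.42, adjusted p = 0.211) and P4ha2 (log2 fold change 0.07, adjusted p = 0.759) did not pass. Without infarcted replicate 3, 4 of the 19 passed, and without sham replicate 2, 5 passed. None passed with the lung terms, 2 with at most 3 Sftpc reads and 3 for RA numbers 1 to 12 alone.

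Matricellular and elastic-fibre genes had 17 of 24 members higher and 0 lower, and their median of 1.34 was 1.21 in infarcted replicate 1 alone. The count was 5 with the lung terms, 4 with at most 3 Sftpc reads and 10 for RA numbers 1 to 12 alone. Postn encodes periostin, a matricellular protein of activated fibroblasts (chr3:54359267-54391041). It had 5563, 3366, 5434 and 6648 in infarcted and 1573, 1299.5, 1217 and 1233 in sham libraries, means of 5253 ± 1371 and 1331 ± 165 (SD, n = 4 each). Infarcted replicate 2 was the lowest of its group and still above the sham maximum (log2 fold change 1.95, SE 0.19, adjusted p = 0.000196). Fn1, fibronectin, had 5012, 5873, 16796 and 9311 in infarcted and 1927, 2089.7, 2139.7 and 1782 in sham libraries (log2 fold change 2.06, SE 0.29, adjusted p = 0.00119), with infarcted replicate 3 well above the rest of its group. Tnc, tenascin C, which is scarce in resting adult heart, had 223, 181, 695 and 391 in infarcted and 40.0, 34.5, 43.7 and 57.7 in sham libraries (log2 fold change 2.88, SE 0.40, adjusted p = 0.00105). Sparc, a collagen-binding protein, had 21192, 18160.2, 27013 and 25723 in infarcted and 9737, 10743, 11779 and 9759 in sham libraries (log2 fold change 1.12, SE 0.13, adjusted p = 0.000354). Its lowest infarcted library lay above its highest sham library. Mfap4, of elastic fibres, had 1449.7, 1546, 2367 and 1942 in infarcted and 486, 337, 639 and 436 in sham libraries (log2 fold change 1.95, SE 0.23, adjusted p = 0.000462).

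The steepest rises of the group came from genes with few reads in sham hearts. Cthrc1, a secreted protein of scar fibroblasts, had 98.8, 57.0, 242 and 152 in infarcted and 6.46, 6.38, 4.60 and 2.14 in sham libraries (log2 fold change 4.44, SE 0.54, adjusted p = 0.000482). Spp1, osteopontin, had 135, 144, 402 and 264 in infarcted and 15.5, 31.9, 13.8 and 21.4 in sham libraries (log2 fold change 3.38, SE 0.47, adjusted p = 0.00111). Both were higher in every infarcted library, and in both replicate 3 was the highest. Among load-bearing and cartilage-type proteins, Cilp had 841, 948, 1395 and 2452 in infarcted and 134, 221, 338 and 327 in sham libraries (log2 fold change 2.42, SE 0.34, adjusted p = 0.00115). Comp had 617, 337, 473 and 938 in infarcted and 212, 180.0, 178 and 152 in sham libraries (log2 fold change 1.62, SE 0.47, adjusted p = 0.0487). Its groups did not overlap, but the call was lost by edgeR (adjusted p = 0.0641), with the lung terms (0.234), with at most 3 Sftpc reads (0.0509), for RA numbers 1 to 12 alone (0.326), and without infarcted replicate 1 (0.0592) or 3 (0.0939). Ltbp2, a microfibril protein, had 445, 379, 785 and 821 in infarcted and 138, 123, 121 and 170.0 in sham libraries (log2 fold change 2.06, SE 0.26, adjusted p = 0.000758). Ctgf, Cyr61 and Thbs1, further members of this list, did not pass by limma. Ctgf had 3799.7, 7067, 7709.6 and 1909.6 in infarcted and 1924, 1792, 2086 and 1463 in sham libraries (log2 fold change 1.31, SE 0.41, adjusted p = 0.0624), with infarcted replicate 4 inside the sham range. Ctgf did pass by edgeR (adjusted p = 0.0344) and with library totals (adjusted p = 0.0478). Cyr61 overlapped between the groups as well (log2 fold change 0.74, adjusted p = 0.232). Thbs1 did not overlap but had 416, 707, 1837 and 614 in infarcted and 241, 237, 206 and 258 in sham libraries, most of it in replicate 3 (log2 fold change 1.69, SE 0.54, adjusted p = 0.0652).

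Matrix proteoglycans, which space collagen fibrils, had 5 of 13 members higher and 0 lower (median 0.75, and 0.37 in infarcted replicate 1). Aspn, asporin, had 1541, 1302, 1402 and 1222 in infarcted and 748, 629, 545 and 578 in sham libraries (log2 fold change 1.13, SE 0.13, adjusted p = 0.000277). Infarcted replicate 1 was the highest library for Aspn. Lum, lumican, and Dcn, decorin, rose less than 2-fold. Lum had 3713, 3167, 4547 and 4813 in infarcted and 2448, 2054, 2383 and 1752 in sham libraries (log2 fold change 0.90, SE 0.16, adjusted p = 0.00453). Dcn had 20105, 17740.2, 21943 and 20477 in infarcted and 14688, 13395, 11250.2 and 12296 in sham libraries (log2 fold change 0.64, SE 0.13, adjusted p = 0.00996). Neither overlapped between the groups. Without sham replicate 2, or without infarcted replicate 3, 3 of the 13 passed. In each of the fits with the lung terms, with at most 3 Sftpc reads and for RA numbers 1 to 12 alone, 1 passed.

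Enzymes that degrade matrix were higher alongside the collagens: of 25 tested matrix proteases and inhibitors 11 were higher and 0 lower (median 0.71, and 0.51 in infarcted replicate 1). Ctsk, the collagen-cutting cathepsin K (chr3:95499210-95509387), had the smallest adjusted p of all tested genes. It had 319, 255, 428 and 395 in infarcted and 124, 126, 111 and 129 in sham libraries (log2 fold change 1.48, SE 0.13, adjusted p = 0.000112). Its 4 sham libraries lay close together, and every infarcted library lay well above them. Mmp2, a gelatinase, had 3823, 3504, 5559.8 and 4136 in infarcted and 1799, 1887, 1933 and 1526 in sham libraries (log2 fold change 1.24, SE 0.13, adjusted p = 0.000196). Adamts12 had 106, 111, 136 and 125 in infarcted and 41.3, 44.7, 65.5 and 38.5 in sham libraries (log2 fold change 1.34, SE 0.16, adjusted p = 0.000452). Timp1, the inhibitor of many metalloproteinases, had 159, 201, 501 and 633 in infarcted and 40.0, 53.6, 98.8 and 186 in sham libraries (log2 fold change 1.99, SE 0.47, adjusted p = 0.0236). Infarcted replicate 1 lay below sham replicate 4 for Timp1, so the groups overlapped. Mmp9, the gelatinase of neutrophils, had 28.9, 65.8, 85.9 and 93.7 in infarcted and 27.1, 24.3, 52.9 and 47.0 in sham libraries and did not pass (log2 fold change 0.79, SE 0.59, adjusted p = 0.419). Without sham replicate 2, or without infarcted replicate 3, 7 of the 25 passed. Of these 25, 3 passed with the lung terms, 3 with at most 3 Sftpc reads and 8 for RA numbers 1 to 12 alone.

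**Figure D2:**
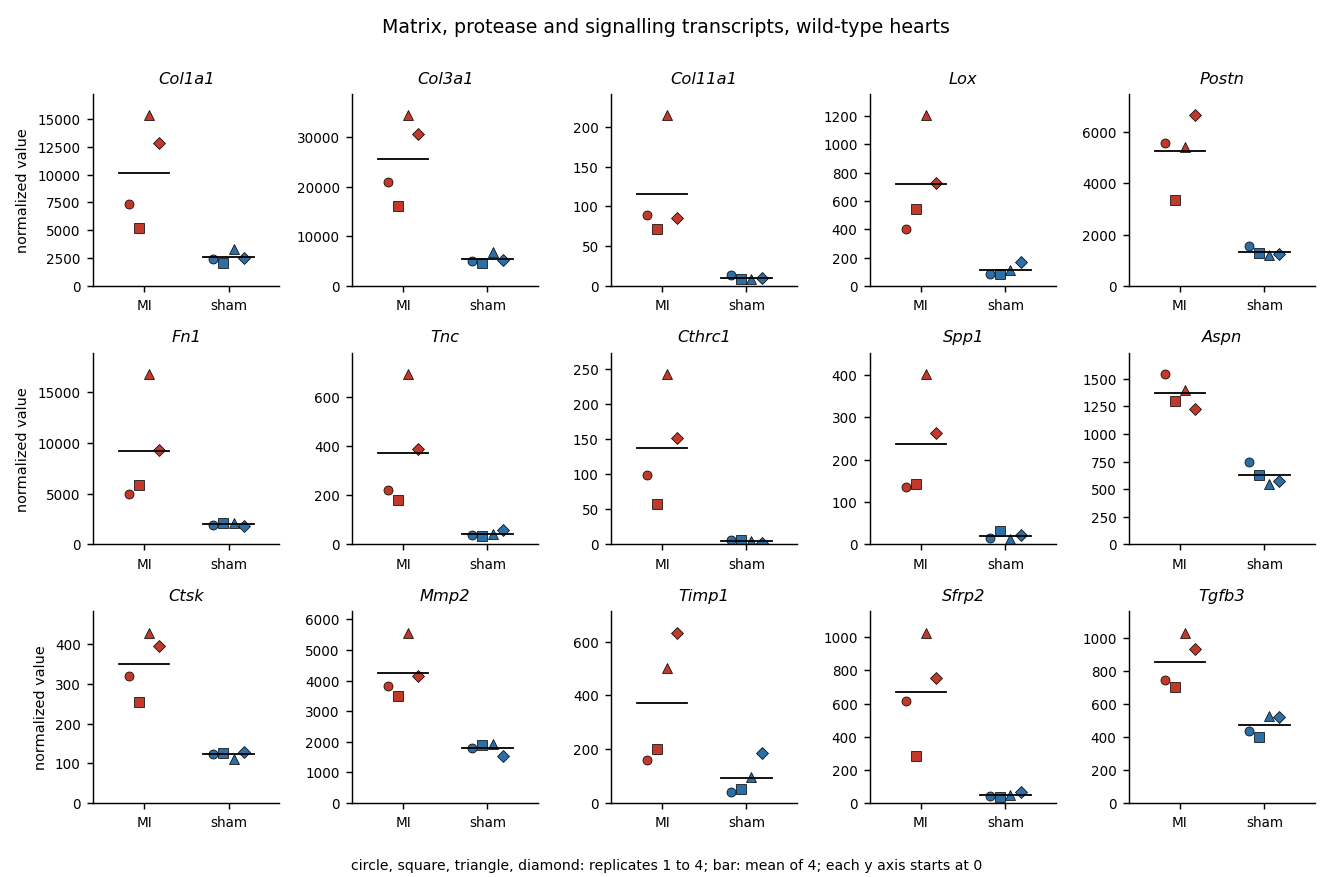
Normalized values of 15 matrix, protease and signalling genes in WT infarcted (red, left) and WT sham (blue, right) hearts. Each marker shape is 1 replicate, bars are means of 4 and every y axis starts at 0; the groups overlap for Timp1 alone among the 15.

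Over the 5 matrix lists together, 57 of 100 tested genes were higher and 0 lower, against 4.96% and 2.09% of all tested genes. In 52 of the 57, infarcted replicate 1 lay above all 4 sham libraries, where 24% of all tested genes did. The 57 were called with replicate 1 among the libraries, so this is a description. The infarcted libraries differed in how far these 57 genes had moved. Replicate 3 was the highest of the 4 for 37 of them and replicate 4 for 18, while replicates 1 and 2 were the lowest for 30 and 25. The median difference from the sham mean was 0.99, 1.05, 1.53 and 1.56 in replicates 1 to 4. Sftpc had 3, 4595, 1092 and 3815 reads in the same replicates. Replicate 1, with the fewest, had the lowest median. Replicate 2, with the most, had the second lowest, and replicate 4 the highest. The part of lung RNA in these medians was not tested. The count was 12 with the lung and thymocyte terms, 14 with the libraries of at most 3 Sftpc reads, 32 for RA numbers 1 to 12 alone, 39 without sham replicate 2 and 38 without infarcted replicate 3. The median over the 100 genes was 0.80, 0.68, 0.95, 0.89 and 0.88 in those 5 fits.

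RefSeq promoter sequence (GRCm38.p6, the assembly that mm10 names) was available for 36 of the 57 risen matrix genes and was searched for TATAAA, a core promoter element, in the 250 bases before each listed start, on both strands. In all, 6 of the 36 held it (16.7%): Aspn, Col3a1, Postn, Spp1, Thbs2 and Tnc. The share was 8.35% of 11298 tested genes with a sequence, 11.7% of those that rose and 8.95% of those that fell. The AP-1 site TGANTCA, bound by Fos and Jun proteins, was in 2 of the 36 matrix genes (5.56%), against 5.79% of all tested genes. It was in 9.39% of the genes that rose and 3.89% of those that fell. The differences between these shares were not tested. The 150 bases before the start are shown for 3 of the genes described above, with TATAAA in capitals, to show where it stands in each. Postn and Tnc have 2 listed starts each, and the start whose 150 bases hold TATAAA is shown. The 150 bases before the other start held 0 matches to this exact sequence in both genes. Those of Tnc hold tatataag, which the exact search did not count. For Postn that other start is the start of the gene position given above. At the start shown for Postn, TATAAA begins 26 bases before it. In Col3a1 and Tnc the match begins 117 and 126 bases before the start shown. Whether these matches act as a core promoter element was not tested.
Postn, chr3:54360957-54361106, plus strand: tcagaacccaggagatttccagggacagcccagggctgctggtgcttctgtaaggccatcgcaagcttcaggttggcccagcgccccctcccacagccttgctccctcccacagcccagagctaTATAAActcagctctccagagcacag
Col3a1, chr1:45311388-45311537, plus strand: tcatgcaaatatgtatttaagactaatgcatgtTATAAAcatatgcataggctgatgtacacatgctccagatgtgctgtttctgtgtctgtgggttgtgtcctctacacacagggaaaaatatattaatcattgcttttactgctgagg
Tnc, chr4:64047016-64047165, minus strand: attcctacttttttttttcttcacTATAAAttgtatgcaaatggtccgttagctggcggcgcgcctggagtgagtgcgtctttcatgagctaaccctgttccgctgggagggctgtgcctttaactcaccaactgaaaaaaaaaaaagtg

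Among genes of resting and activated fibroblasts, 7 of 20 were higher and 0 lower (median 0.56, and 0.48 in infarcted replicate 1). Sfrp2, a secreted WNT modulator (chr3:83765750-83774314), had 613, 286, 1026 and 754 in infarcted and 45.2, 37.0, 48.3 and 67.4 in sham libraries (log2 fold change 3.62, SE 0.46, adjusted p = 0.000758). Its lowest infarcted library was more than 4-fold above the highest sham library. Ptn, pleiotrophin, had 215, 133, 198 and 211 in infarcted and 78.8, 56.2, 59.8 and 46.0 in sham libraries (log2 fold change 1.64, SE 0.23, adjusted p = 0.00115). Runx1, a transcription factor, had 74.7, 73.5, 175 and 129.6 in infarcted and 42.6, 21.7, 35.6 and 44.9 in sham libraries (log2 fold change 1.57, SE 0.30, adjusted p = 0.0084). Pdgfra, the receptor that marks cardiac fibroblasts, rose less, with 1479, 1560.3, 1597 and 1396 in infarcted and 1030.5, 877, 1142 and 863 in sham libraries (log2 fold change 0.63, SE 0.14, adjusted p = 0.0166). The contractile genes of myofibroblasts did not pass: Acta2 had 4113, 6815, 6658 and 5333 in infarcted and 2748, 2567, 6189 and 4521 in sham libraries (log2 fold change 0.58, SE 0.28, adjusted p = 0.193), and Tagln (log2 fold change -0.14, adjusted p = 0.777) and Cnn1 (log2 fold change -0.35, adjusted p = 0.649) had negative differences. Smooth muscle expresses these 3 genes too, and 0 of 12 mural cell markers passed (0 by edgeR, and 1 at an unadjusted p below 0.05). Tcf21, a transcription factor of resting fibroblasts, did not pass either (log2 fold change 0.36, adjusted p = 0.443). Without sham replicate 2, 3 of the 20 passed, and without infarcted replicate 3, 4 passed. The count was 1 with the lung terms, 3 with at most 3 Sftpc reads and 2 for RA numbers 1 to 12 alone.

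In the list of TGF-beta, BMP and WNT signalling genes, 6 of 24 were higher and 0 lower (median 0.42, and 0.20 in infarcted replicate 1). All 6 calls were lost with the lung terms and with at most 3 Sftpc reads, where 0 of 24 passed, and 3 passed for RA numbers 1 to 12 alone. Of the TGF-beta ligands Tgfb3 rose, with 745, 707, 1034 and 938 in infarcted and 438, 403, 529.8 and 523 in sham libraries (log2 fold change 0.85, SE 0.12, adjusted p = 0.00105). Tgfb1 and Tgfb2 did not pass. Tgfb1 had 629, 628, 690.5 and 772 in infarcted and 646, 615, 596 and 544 in sham libraries (log2 fold change 0.18, SE 0.15, adjusted p = 0.472), and Tgfb2 had a log2 fold change of 0.29 (adjusted p = 0.338). Both receptors passed, with small differences. Tgfbr2 had 1933, 1914, 1988 and 2457 in infarcted and 1537, 1421, 1469 and 1505 in sham libraries (log2 fold change 0.48, SE 0.07, adjusted p = 0.00246), and Tgfbr1 a log2 fold change of 0.53 (adjusted p = 0.0437). Fstl1, a secreted glycoprotein of the follistatin family, had 4488, 3918, 6387 and 6816 in infarcted and 2124, 2018, 2939.5 and 2704 in sham libraries (log2 fold change 1.12, SE 0.18, adjusted p = 0.0033). Fst, which binds activins, had 43.4, 71.3, 84.8 and 62.1 in infarcted and 25.8, 21.7, 14.9 and 26.7 in sham libraries (log2 fold change 1.503, SE 0.36, adjusted p = 0.023). The WNT receptor Fzd1 was the sixth (log2 fold change 0.83, adjusted p = 0.0268). The feedback inhibitors Smad6 (log2 fold change 0.10, adjusted p = 0.77) and Smad7 (log2 fold change -0.06, adjusted p = 0.85) did not pass. Of the 24, 3 passed without sham replicate 2 or without infarcted replicate 3, and 4 passed without sham replicates 3 or 4 or without infarcted replicates 2 or 4.

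Genes of the angiotensin, endothelin and natriuretic peptide systems gave 0 of 15 past the threshold (0 by edgeR, 3 at an unadjusted p below 0.05). The count was 1 for RA numbers 1 to 12 alone, with library totals, with the Xist or the adipocyte covariate and without infarcted replicate 1, 2 by DESeq2, 1 (lower) with the 8 WT libraries alone, and 0 with the lung terms or at most 3 Sftpc reads. Nppb, which encodes brain natriuretic peptide, had 3416, 3393, 4869 and 5038 in infarcted libraries, against 1105, 1039, 4098 and 3872 in sham libraries (log2 fold change 0.99, SE 0.40, adjusted p = 0.131). Sham replicates 3 and 4 lay far above sham replicates 1 and 2, and infarcted replicates 1 and 2 lay between those levels. These 2 sham libraries are those of RA number 14 and above, and for RA numbers 1 to 12 alone the log2 fold change of Nppb was 1.84 (adjusted p = 0.0189). Nppa, atrial natriuretic peptide, had 17937, 56827, 31849.5 and 37888 in infarcted and 21072, 15554, 31386 and 44701 in sham libraries (log2 fold change 0.35, SE 0.33, adjusted p = 0.527), with the ranges overlapping throughout. Atrial markers summed to 26295 to 89529 in infarcted and 29126 to 69639.8 in sham libraries, and that list holds Nppa itself; their part in Nppa was not tested. Ace, angiotensin-converting enzyme, had 3735, 2509.9, 2885 and 2222 in infarcted and 2514, 2233, 1457 and 1853 in sham libraries (log2 fold change 0.50, SE 0.17, adjusted p = 0.0737). Agt, angiotensinogen, had 108, 931, 386 and 244 in infarcted and 90.4, 134, 128 and 136 in sham libraries (log2 fold change 1.37, SE 0.57, adjusted p = 0.143), and infarcted replicate 1 lay inside the sham range.

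**Figure D3:**
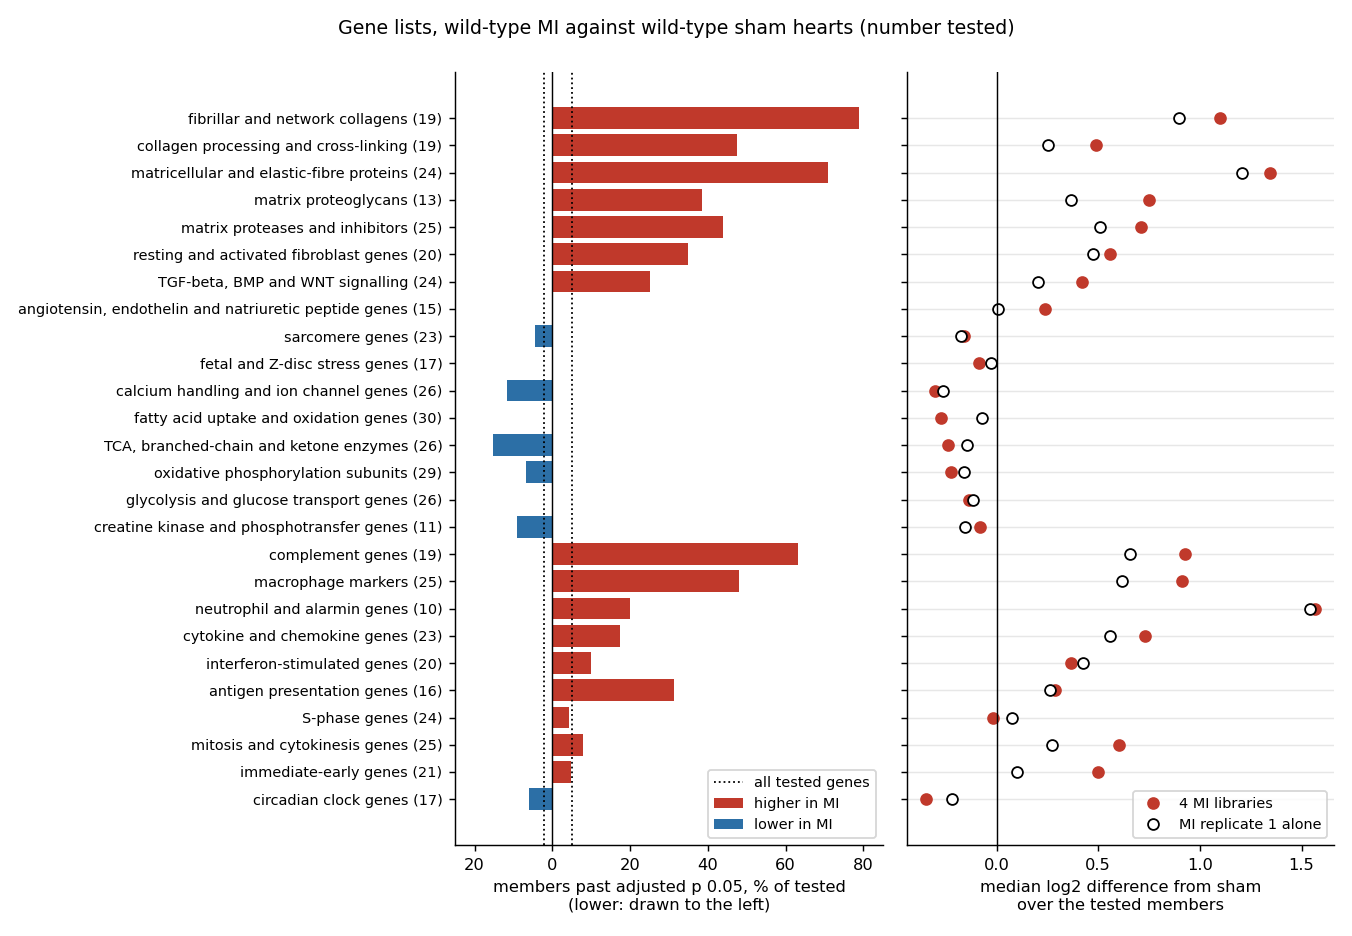
For each gene list, left: the share of tested members (number in brackets) past adjusted p 0.05, higher in infarcted hearts drawn to the right in red and lower drawn to the left in blue; dotted lines mark 4.96% and 2.09% of all tested genes. Right: the median log2 difference from sham over the members, for all 4 infarcted libraries (filled) and for infarcted replicate 1 alone (open), which sits on the same side of 0 in every list but S-phase genes.

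Contractile genes gave 1 call. Of 23 tested sarcomere genes 0 were higher and 1 lower, where 2.09% of all tested genes were lower. The median was -0.16 (-0.17 in infarcted replicate 1). The gene that fell was Ttn, the giant elastic protein titin, with 85321, 61926, 75759 and 82584 in infarcted and 101517, 108248, 104914 and 108434 in sham libraries (log2 fold change -0.48, SE 0.14, adjusted p = 0.0457). Every infarcted library lay below every sham library for Ttn, but the call was lost without any one WT library other than infarcted replicate 1, with the lung terms, with at most 3 Sftpc reads and for RA numbers 1 to 12 alone. Ldb3, a Z-disc protein (log2 fold change -0.28, adjusted p = 0.0705), did not overlap between the groups and did not pass. Myh6, the adult ventricular myosin heavy chain of the mouse, had 366534, 400484, 381368 and 323950.0 in infarcted and 382890.0, 455332, 415654 and 336328 in sham libraries (log2 fold change -0.11, SE 0.16, adjusted p = 0.707). Myh7, the fetal heavy chain, had 15094, 23473, 12951 and 14069 in infarcted and 13506, 15151, 12981 and 4259 in sham libraries (log2 fold change 0.63, SE 0.33, adjusted p = 0.234), with sham replicate 4 far below the other sham libraries. Acta1, skeletal actin, had 18359.7, 5863, 5706 and 35742 in infarcted and 13662, 5715, 14980.3 and 21298 in sham libraries (log2 fold change -0.05, SE 0.55, adjusted p = 0.969). Both groups spanned more than 3-fold for Acta1.

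The fetal and Z-disc stress list gave 0 of 17 (0 by edgeR, 2 higher and 3 lower at an unadjusted p below 0.05, 1 with library totals and 1 without infarcted replicate 1), with a median of -0.09. With the lung terms 0 of the 17 passed, with a median of -0.06. Ankrd1, a stress protein of the titin region and a YAP target, had 34315, 10198, 16003 and 34782 in infarcted and 17465, 17216, 20389 and 32632 in sham libraries (log2 fold change -0.01, SE 0.34, adjusted p = 0.989). Infarcted replicate 2 was the lowest library of all 8, and replicates 1 and 4 lay just above the highest sham library. Actn1, the non-muscle alpha-actinin, did not overlap between the groups and did not pass (log2 fold change 0.57, adjusted p = 0.061).

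Of 26 ion channel and calcium genes 3 fell and 0 rose, where 2.09% of all tested genes fell. Of the 26, 11 lay below the sham range without overlap (7.83% of all tested genes did), and 25 had a negative difference, against 54.4% of all tested genes. The median was -0.30, and -0.26 in infarcted replicate 1. Ryr2, the calcium release channel of the sarcoplasmic reticulum (chr13:11553099-12106945), had 24289.9, 21980.4, 24552 and 24168 in infarcted and 29199, 36038, 33016 and 33195 in sham libraries (log2 fold change -0.47, SE 0.11, adjusted p = 0.0229). Kcnh2, which carries the rapid delayed rectifier current, had 1673, 1849, 1641 and 2031 in infarcted and 2554, 2866, 2426 and 2591 in sham libraries (log2 fold change -0.54, SE 0.15, adjusted p = 0.039). Kcnd3, a subunit of the transient outward current, had 342, 207, 225 and 299 in infarcted and 367, 386, 411 and 413 in sham libraries (log2 fold change -0.58, SE 0.16, adjusted p = 0.037). In each, all infarcted libraries were below all sham libraries. Kcnd2, its partner subunit in the mouse ventricle, had 449.5, 354, 447 and 313 in infarcted and 484, 562, 376 and 346 in sham libraries (log2 fold change -0.17, SE 0.28, adjusted p = 0.738). Atp2a2, the calcium pump SERCA2, had 257079, 277968, 256642 and 200642 in infarcted and 288892, 321196, 296158 and 274426 in sham libraries (log2 fold change -0.26, SE 0.16, adjusted p = 0.331). None of the 26 passed without sham replicates 2 or 4 or without infarcted replicates 2 or 3, while 1 passed without sham replicates 1 or 3 and 5 without infarcted replicate 1. With library totals 1 passed and the median was -0.23, and by edgeR 1 passed. With the lung terms, with at most 3 Sftpc reads and for RA numbers 1 to 12 alone 0 passed, with medians of -0.32, -0.26 and -0.33.

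Mitochondrial genes differed by small and even amounts. All 29 tested oxidative phosphorylation subunits had a negative difference, from -0.29 to -0.16, with a median of -0.22 (-0.16 in infarcted replicate 1, -0.16 with library totals). Of these 2 passed, where 2.09% of all tested genes were lower: Uqcrc1, a core subunit of complex III, and Ndufa10, of complex I. Uqcrc1 had 18829.6, 17609, 18773 and 15785 in infarcted and 21178, 23246, 21029 and 21199.9 in sham libraries (log2 fold change -0.29, SE 0.07, adjusted p = 0.0271). Ndufa10 had 10044, 8970.5, 9447 and 8107 in infarcted and 10829, 12367, 10666 and 10474 in sham libraries (log2 fold change -0.28, SE 0.07, adjusted p = 0.0356). In 19 of the 29, every infarcted library was below every sham library, where 7.83% of all tested genes were. The counts of passing genes were 0 without sham replicates 2 or 4 or infarcted replicates 2 or 4, 1 without sham replicate 3 or infarcted replicate 3, and 8 without infarcted replicate 1. The lung terms, the limit of 3 Sftpc reads and RA numbers 1 to 12 alone each left 0, with medians of -0.13, -0.16 and -0.17.

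The 26 enzymes of the TCA cycle and of branched-chain and ketone oxidation ran from -0.58 to -0.20, all negative, with a median of -0.24 (-0.14 in infarcted replicate 1). In 18 of the 26 every infarcted library lay below every sham library, where 7.83% of all tested genes did. The 4 that fell, where 2.09% of all tested genes fell, were Dlat and Pdhb of the pyruvate dehydrogenase complex, Idh3a and Suclg1. Idh3a, a subunit of isocitrate dehydrogenase, had 11206, 11206, 11336 and 10864 in infarcted and 12104, 13808, 13670.3 and 14139 in sham libraries (log2 fold change -0.27, SE 0.07, adjusted p = 0.0383). Its infarcted libraries lay close together, and all were below the sham range. Dlat had 9056, 7751, 8414 and 7365 in infarcted and 9636, 10812, 9444 and 10063 in sham libraries (log2 fold change -0.30, SE 0.08, adjusted p = 0.0359). Pdhb (log2 fold change -0.24, adjusted p = 0.0364) and Suclg1 (log2 fold change -0.25, adjusted p = 0.0481) differed by similar amounts. None of the 26 passed without sham replicates 2 or 4 or infarcted replicates 2, 3 or 4, nor with library totals. The count was 1 without sham replicate 3 and 12 without infarcted replicate 1. By edgeR 1 passed. The lung terms, the limit of 3 Sftpc reads and RA numbers 1 to 12 alone each left 0 here too, with medians of -0.13, -0.14 and -0.21.

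Fatty acid uptake and oxidation gave 0 of 30 past the threshold (0 by edgeR, 1 higher and 14 lower at an unadjusted p below 0.05, and 6 lower without infarcted replicate 1), with a median of -0.27 that was -0.07 in infarcted replicate 1. With the lung terms 0 of the 30 passed, with a median of -0.08. Cpt1b, which admits fatty acids to muscle mitochondria, had 852, 803, 759 and 676 in infarcted and 923, 1129.7, 997 and 988 in sham libraries (log2 fold change -0.39, SE 0.12, adjusted p = 0.0628). Its groups did not overlap. Pdk4, which shuts off pyruvate dehydrogenase, and Ppargc1a, the coactivator of mitochondrial genes, spread widely instead. Pdk4 had 12739, 43171, 14646 and 2921 in infarcted and 4096, 8188, 6199 and 3211 in sham libraries (log2 fold change 1.28, SE 0.71, adjusted p = 0.261), and Ppargc1a 2984, 11500.1, 6488 and 1876 in infarcted and 2282, 2776, 2583 and 2302 in sham libraries (log2 fold change 0.87, SE 0.43, adjusted p = 0.214). Infarcted replicate 2 was the highest of the 8 libraries for both. It also held the most adipocyte transcripts, with a marker sum of 24777 against 6299 to 15667 in the other infarcted and 5769 to 13197 in the sham libraries, and the part of these in Pdk4 and Ppargc1a was not tested. Glycolysis and glucose transport gave 0 of 26 (0 by edgeR, 2 higher and 5 lower at an unadjusted p below 0.05, and 1 higher and 3 lower without infarcted replicate 1), with a median of -0.14. With the lung terms 0 of the 26 passed, with a median of -0.09. In the creatine kinase and phosphotransfer list Ak1, an adenylate kinase, was the single gene to fall, with 9611, 7864, 9323 and 8697 in infarcted and 11202, 11598, 10402 and 10861 in sham libraries (log2 fold change -0.32, SE 0.09, adjusted p = 0.0495), and it passed in none of the fits without 1 WT library other than infarcted replicate 1, nor with the lung terms or at most 3 Sftpc reads. Ckm, muscle creatine kinase, did not pass (log2 fold change -0.21, adjusted p = 0.225).

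**Figure D4:**
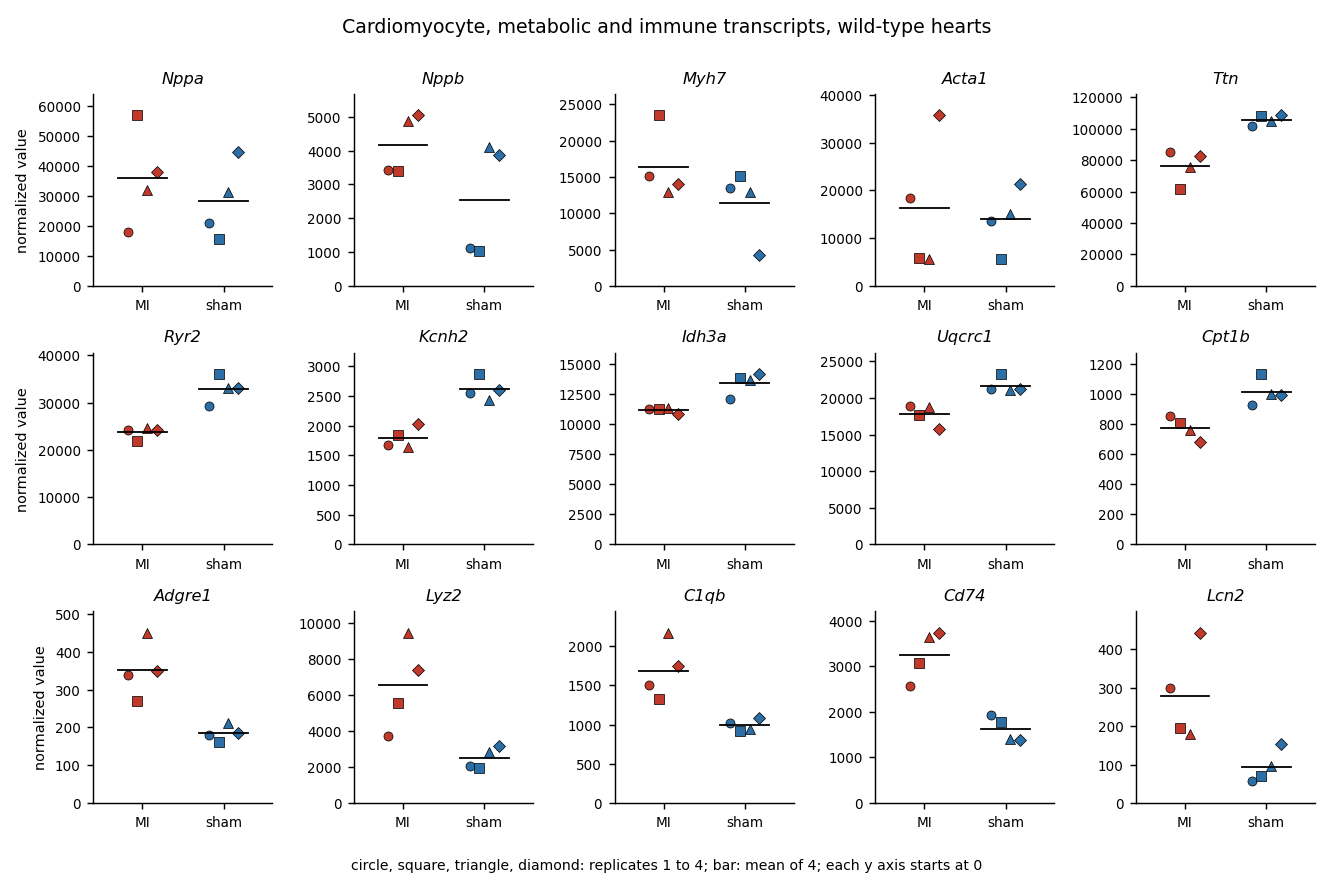
Normalized values of 15 cardiomyocyte, metabolic and immune genes in WT infarcted (red, left) and WT sham (blue, right) hearts. Marker shapes are replicates 1 to 4, bars are means of 4 and every y axis starts at 0; Nppa, Nppb, Myh7 and Acta1 overlap between the groups, and the other 11 do not.

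Macrophage transcripts rose: 12 of 25 tested markers were higher and 0 lower, where 4.96% of all tested genes were higher. The markers had a median of 0.91 (0.62 in infarcted replicate 1). Their sum was 22880 to 41436 in infarcted and 13467 to 17851 in sham libraries (exact permutation p = 0.0286, two-sided). Adgre1, the F4/80 antigen, had 339, 271, 450.2 and 349.7 in infarcted and 181, 161, 213 and 185 in sham libraries (log2 fold change 0.91, SE 0.19, adjusted p = 0.013). Lyz2, lysozyme of macrophages and of alveolar type 2 cells, had 3723, 5563, 9443 and 7395 in infarcted and 2084, 1949, 2812 and 3171 in sham libraries (log2 fold change 1.33, SE 0.27, adjusted p = 0.0121). Infarcted replicate 1 lay above every sham library in both genes. Gpnmb, a marker of lipid-laden and scar macrophages, had 175, 217, 216 and 161 in infarcted and 49.1, 43.4, 58.6 and 41.7 in sham libraries (log2 fold change 1.97, SE 0.44, adjusted p = 0.018). Mrc1, a marker of resident macrophages, had 1302, 1055, 1483 and 1309 in infarcted and 1009, 835, 786 and 785 in sham libraries (log2 fold change 0.59, SE 0.16, adjusted p = 0.0349). Cx3cr1 and Lgals3 did not pass. Lgals3, galectin 3, had 229, 237, 388 and 438 in infarcted and 170.5, 106, 193 and 432 in sham libraries (log2 fold change 0.65, SE 0.42, adjusted p = 0.341), and Cx3cr1 a log2 fold change of 0.14 (adjusted p = 0.901). Without sham replicate 2 the list gave 2 genes, without infarcted replicate 3 it gave 4, and without sham replicates 1 or 4 it gave 8. With the lung and thymocyte terms the count was 0, with at most 3 Sftpc reads 1 and for RA numbers 1 to 12 alone 0, with medians of 0.96, 0.62 and 1.03. The lung stromal list, which holds markers of alveolar macrophages, summed to 1240 to 2033 in infarcted and 725 to 1093 in sham libraries.

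Complement genes had 12 of 19 tested members higher and 0 lower, where 4.96% of all tested genes were higher. Their median was 0.93, and 0.66 in infarcted replicate 1. C1qb, a chain of the recognition molecule C1q made by macrophages, had 1504, 1326, 2167 and 1741 in infarcted and 1024, 919, 938 and 1083 in sham libraries (log2 fold change 0.74, SE 0.14, adjusted p = 0.00617). C1ra, a protease of the same complex, had 518, 481, 932 and 697 in infarcted and 331, 326, 269 and 251 in sham libraries (log2 fold change 1.12, SE 0.22, adjusted p = 0.00945). Cfb, factor B of the alternative pathway, had 152, 178, 655 and 364 in infarcted and 64.6, 88.1, 73.5 and 67.4 in sham libraries (log2 fold change 1.94, SE 0.44, adjusted p = 0.0197). The rise was steepest in infarcted replicate 3 for all 3 genes, and none overlapped between the groups. C3, the hub of the cascade, had 6762, 10285, 23471 and 17169 in infarcted and 3880.4, 4339, 5169 and 4983 in sham libraries (log2 fold change 1.503, SE 0.40, adjusted p = 0.035). Hc, which encodes complement C5 and was outside the list, was among the 10 largest rises with 4.82, 334, 47.8 and 107 in infarcted and 2.58, 0, 2.30 and 0 in sham libraries (log2 fold change 4.93, SE 1.04, adjusted p = 0.0135). Infarcted replicate 1 stood near the sham libraries for Hc, and the order of the infarcted libraries was that of Sftpc. The complement count was 2 and 3 without infarcted replicates 3 and 4, and 7, 4, 5 and 5 without sham replicates 1 to 4. It was 0 with the lung and thymocyte terms, with at most 3 Sftpc reads and for RA numbers 1 to 12 alone, with medians of 0.81, 0.66 and 0.89.

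Of the antigen presentation genes, 5 of 16 were higher and 0 lower (median 0.29), and the 5 belong to the class II pathway: H2-Aa, H2-Ab1, H2-DMa, H2-DMb1 and Cd74. Cd74, the invariant chain, had 2574, 3075, 3648 and 3735 in infarcted and 1921, 1772, 1402 and 1375 in sham libraries (log2 fold change 1.01, SE 0.20, adjusted p = 0.00961). H2-Aa had 899, 749, 721 and 989 in infarcted and 536, 523, 318 and 293 in sham libraries (log2 fold change 1.05, SE 0.24, adjusted p = 0.02). Infarcted replicate 1 lay above all sham libraries for all 5. The class I genes H2-K1 (log2 fold change 0.22, adjusted p = 0.614), H2-D1 (log2 fold change 0.23, adjusted p = 0.535) and B2m (log2 fold change 0.34, adjusted p = 0.169) did not pass. The difference between the 2 classes was not tested. Between 1 and 3 of the 16 passed without any one WT library other than infarcted replicate 1, where 4 passed, and 0 passed with the lung terms, with at most 3 Sftpc reads or for RA numbers 1 to 12 alone.

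Of the neutrophil, cytokine and interferon lists 2 of 10, 4 of 23 and 2 of 20 genes were higher, where 4.96% of all tested genes were. With the lung terms and with at most 3 Sftpc reads each of the 3 lists gave 0, and for RA numbers 1 to 12 alone they gave 1, 0 and 2. Of 10 tested neutrophil and alarmin genes, Il1b and Lcn2 were higher and 0 lower. Lcn2, lipocalin 2, had 300.1, 195, 179 and 443 in infarcted and 56.8, 71.5, 96.5 and 153 in sham libraries (log2 fold change 1.56, SE 0.35, adjusted p = 0.0175), with infarcted replicate 1 the second highest. Il1b, interleukin 1 beta, stood at 9.64, 6.58, 33.7 and 13.7 in infarcted and 2.58, 0, 1.15 and 1.07 in sham libraries (log2 fold change 2.83, SE 0.59, adjusted p = 0.0129), at most 33.7 normalized reads. None of the 10 passed without sham replicate 2, and 1 without infarcted replicate 3. Csf3r, the receptor that marks neutrophils, did not pass (log2 fold change 0.58, adjusted p = 0.402). Of 23 cytokines and chemokines, 4 were higher: Il1b again, Ccl6, Ccl9 and Cxcl10. Ccl9 had 377, 761, 1231 and 544 in infarcted and 165, 236, 328 and 337 in sham libraries (log2 fold change 1.37, SE 0.35, adjusted p = 0.031). Ccl6 had 645, 1382, 2248 and 1457 in infarcted and 354, 414, 650.4 and 794 in sham libraries, with an overlap between the groups (log2 fold change 1.32, SE 0.35, adjusted p = 0.035). Ccl2 (log2 fold change 0.90, adjusted p = 0.35), Tnf (log2 fold change -0.08, adjusted p = 0.942) and Cxcl12 (log2 fold change -0.22, adjusted p = 0.394) did not pass. Without sham replicate 2 or infarcted replicate 3 the chemokine list gave 0 genes, and without sham replicate 1 or infarcted replicate 4 it gave 1 and 2. Interferon-stimulated genes had 2 of 20 higher, Bst2 (log2 fold change 0.71, adjusted p = 0.0164) and Oasl2 (log2 fold change 0.57, adjusted p = 0.0283), and 0 passed without sham replicate 2 or infarcted replicate 3. Without sham replicates 1, 3 or 4 the count was 1, 4 and 1. Saa3, an acute-phase gene outside these lists, had the largest rise of all by the rule for naming genes, with 28.9, 29.6, 522 and 99.0 in infarcted and 0, 1.28, 4.60 and 3.21 in sham libraries (log2 fold change 4.94, SE 1.10, adjusted p = 0.0173). Infarcted replicate 3 carried most of its reads, and replicates 1 and 2 lay near 29.

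The S-phase, mitosis and immediate-early lists had 1 of 24, 2 of 25 and 1 of 21 genes higher, where 4.96% of all tested genes were. The first and last of these counts lay near that share. Of 24 S-phase genes Tyms, thymidylate synthase, was the one that rose, with 80.7, 65.8, 77.2 and 96.9 in infarcted and 56.8, 46.0, 48.3 and 50.3 in sham libraries (log2 fold change 0.65, SE 0.18, adjusted p = 0.0403). Of 25 mitosis and cytokinesis genes, Nuf2 (log2 fold change 1.34, adjusted p = 0.0268) and Bub1b (log2 fold change 1.01, adjusted p = 0.0355), of the kinetochore and the spindle checkpoint, were higher. Their list had a median of 0.60 (0.27 in infarcted replicate 1) and 24 positive differences, against 45.6% of all tested genes. Mki67, the proliferation marker, had 143, 157, 189 and 149.6 in infarcted and 149, 106, 128 and 58.8 in sham libraries (log2 fold change 0.60, SE 0.28, adjusted p = 0.18), with overlap. The S-phase call was lost without any one WT library other than infarcted replicates 1 or 2, and the mitosis count was 0 without sham replicate 2 or infarcted replicates 2 or 3, 1 without sham replicate 4 or infarcted replicate 4, and 7 without infarcted replicate 1. Of 21 immediate-early genes Myc rose, with 157, 185, 182 and 101 in infarcted and 85.2, 90.6, 64.4 and 59.9 in sham libraries (log2 fold change 1.03, SE 0.29, adjusted p = 0.0461), and it passed in none of the fits without 1 WT library other than infarcted replicate 4. With the lung terms, with at most 3 Sftpc reads and for RA numbers 1 to 12 alone, these 3 lists gave 0 calls. Fos (log2 fold change 0.87, adjusted p = 0.301) and Egr1 (log2 fold change 0.38, adjusted p = 0.656) did not pass.

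The largest falls were shallow. Of the 10, Ciart, a repressor of the circadian clock, fell furthest, with 154, 73.5, 146 and 264 in infarcted and 323, 403, 313 and 404 in sham libraries (log2 fold change -1.30, SE 0.34, adjusted p = 0.035). It was the 1 of 17 clock genes to pass, and it did not pass without any one of the sham libraries or without infarcted replicates 2 or 3, nor with the lung terms, with at most 3 Sftpc reads or for RA numbers 1 to 12 alone. Other clock genes spread widely: Dbp had 1594, 490.1, 894 and 2575 in infarcted and 2481, 3324, 2301 and 2327 in sham libraries (log2 fold change -1.15, SE 0.57, adjusted p = 0.212), and Arntl 84.4, 387, 266 and 99.0 in infarcted and 36.2, 34.5, 174 and 127 in sham libraries (log2 fold change 1.23, SE 0.71, adjusted p = 0.286). The hour at which hearts were taken is not given in the labels. Gpr22, an orphan receptor of heart and brain, had 477, 269, 357 and 708 in infarcted and 808, 1039, 833 and 1223 in sham libraries (log2 fold change -1.18, SE 0.34, adjusted p = 0.0478). Entpd5, a nucleotidase of the endoplasmic reticulum, had 3607, 2122, 2640.2 and 3176 in infarcted and 5172, 5592, 3753 and 4489.8 in sham libraries (log2 fold change -0.73, SE 0.20, adjusted p = 0.039). Ankrd63 had 31.3, 38.4, 40.2 and 34.8 in infarcted and 63.3, 76.6, 58.6 and 99.4 in sham libraries (log2 fold change -0.998, SE 0.18, adjusted p = 0.00516). The remaining 6 were 6430571L13Rik, C130083M11Rik, Shisa2, Mtl5, Gm5595 and Asb18, with log2 fold changes of -0.91, -0.88, -0.85, -0.76, -0.73 and -0.72. By the rule that named these genes, infarcted and sham libraries did not overlap for any of the 10.

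The steepest rises included genes of other tissues. Of the 10 largest, Aqp5, a water channel of lung alveolar type 1 cells and glands, had 4.82, 76.8, 46.8 and 73.7 in infarcted and 0, 0, 1.15 and 4.28 in sham libraries (log2 fold change 4.28, SE 0.98, adjusted p = 0.02), with replicate 1 near the sham libraries and the infarcted libraries in the order of Sftpc. C1qtnf3, a secreted C1q-like protein, had 83.2, 99.8, 42.4 and 49.5 in infarcted and 3.87, 1.28, 0 and 1.07 in sham libraries (log2 fold change 4.91, SE 0.58, adjusted p = 0.000443). Infarcted replicate 1 was its second highest library. Plac8 had 16.9, 44.96, 60.9 and 84.3 in infarcted and 5.17, 0, 8.04 and 6.42 in sham libraries (log2 fold change 3.34, SE 0.69, adjusted p = 0.0128). Among 17 tested lung epithelial markers 3 passed, Ager, Napsa and Lyz1. Without infarcted replicate 1 the count was 14, by edgeR it was 8, and 14 were higher at an unadjusted p below 0.05. Without any other single WT library it was 1 or 2. Ager, of alveolar type 1 cells, had 6.03, 465, 127 and 237 in infarcted and 2.58, 3.83, 1.15 and 3.21 in sham libraries (log2 fold change 4.82, SE 1.13, adjusted p = 0.0219). The median over the 17 was 3.42, and 0.16 in infarcted replicate 1. Ager did not pass without sham replicate 2 or without infarcted replicates 2, 3 or 4.

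Of 18 endothelial markers, Cldn5 (log2 fold change 0.80, adjusted p = 0.0135), a tight junction protein, and Flt4 (log2 fold change 0.46, adjusted p = 0.0181), the lymphatic VEGF receptor, were higher, and the sums overlapped, at 39398 to 47141 in infarcted and 36034 to 43494 in sham libraries. With the lung terms, with at most 3 Sftpc reads and for RA numbers 1 to 12 alone 0 of the 18 passed, as without sham replicate 2. Epicardial and mesothelial markers had 3 of 11 higher, Upk1b (log2 fold change 1.64, adjusted p = 0.0473), Aldh1a2 (log2 fold change 1.29, adjusted p = 0.0312) and Krt18 (log2 fold change 1.16, adjusted p = 0.0338), and 0 lower, with a median of 1.16 that was 0.16 in infarcted replicate 1. The count was 9 without infarcted replicate 1, 6 by edgeR, 2 without sham replicate 3 and 0 without any other single WT library. It was also 0 with the lung terms, with at most 3 Sftpc reads, for RA numbers 1 to 12 alone and with the adipocyte covariate. Mesothelium lines the lung as well as the heart. Wt1, the epicardial transcription factor, had 143, 241, 465 and 323 in infarcted and 149, 154, 146 and 141 in sham libraries (log2 fold change 0.86, SE 0.26, adjusted p = 0.0575), and infarcted replicate 1 lay inside the sham range. B and plasma cell markers summed to 113 to 1227 in infarcted and 88.1 to 209 in sham libraries, with infarcted replicate 1 at 113 (exact permutation p = 0.0571, two-sided). Skeletal muscle, atrial, Schwann cell, mast cell, adipocyte, and thymocyte and T cell markers each gave 0 genes past the threshold by limma and by edgeR (0, 1, 0, 1, 0 and 1 at an unadjusted p below 0.05), and their sums overlapped between the groups. All 10 adipocyte markers had a positive difference, with a median of 1.10 that was -0.18 in infarcted replicate 1. All 7 mast cell markers did too, with a median of 0.82 that was -0.49 in infarcted replicate 1. The 16 skeletal muscle markers had a median of 0.39 that was 2.73 in infarcted replicate 1, the highest infarcted library for 12 of them. The 10 atrial markers had a median of -0.13 that was -1.06 in infarcted replicate 1, the lowest infarcted library for 9 of them. Replicate 1 is the only WT infarcted library in the fit with at most 3 Sftpc reads. The part of these tissues in that fit was not tested. The fast skeletal myosin Myh2 stood at 123, 21.9, 3.26 and 2.11 in infarcted and 36.2, 1.28, 0 and 0 in sham libraries, highest in infarcted replicate 1 and next in sham replicate 1. The brown fat gene Ucp1 stood at 114, 1394, 52.2 and 53.7 in infarcted and 0, 0, 195 and 599 in sham libraries, with a wide spread within both groups.

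Between OE infarcted and OE sham hearts 1 gene of 14298 passed (0.00699%), the receptor gene Ret, which was lower. The infarct difference itself was tested between genotypes, as OE minus WT, and this gave 12 genes (0.0839%), 11 negative and 1 positive. Of the 11, 9 had risen in WT hearts, and 7 of these belong to the matrix lists: Ctsk, Mmp2, Postn, Col3a1, Col5a2, Adamts12 and Sparc. The other 2 were Fbln7, a fibulin, and Pamr1. The choice of genes used the same WT libraries, so this count is a description. Postn had 16126, 21012, 20530.5 and 15068 in OE infarcted and 18389, 19600.3, 16811 and 11998 in OE sham hearts (log2 fold change 0.13, SE 0.19), against 5563, 3366, 5434 and 6648 in WT infarcted and 1573, 1299.5, 1217 and 1233 in WT sham hearts; the difference of the effects was -1.81, SE 0.27, adjusted p = 0.022. Every OE library, sham or infarcted, was above every WT library. Ctsk had 722, 626, 778 and 661 in OE infarcted and 798, 673, 824 and 735 in OE sham hearts, and a difference of effects of -1.60, SE 0.19, adjusted p = 0.0041. Col3a1 had 50004, 55498, 38591 and 29349.5 in OE infarcted and 35154, 37713, 44679 and 34069 in OE sham hearts, with a difference of -2.05, SE 0.32, adjusted p = 0.023. The lowest OE infarcted library for Col3a1, replicate 4, lay below the 2 highest WT infarcted libraries. Mmp2, Col5a2, Adamts12, Sparc, Fbln7 and Pamr1 had differences of effects from -2.31 for Fbln7 to -1.09 for Sparc.

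Ankrd63 was the 1 positive gene, with 45.5, 45.2, 49.99 and 51.1 in OE infarcted and 34.9, 26.7, 35.2 and 40.7 in OE sham hearts, against 31.3, 38.4, 40.2 and 34.8 in WT infarcted and 63.3, 76.6, 58.6 and 99.4 in WT sham hearts (difference of effects 1.48, SE 0.25, adjusted p = 0.029). Eno2, Pamr1 and Ret complete the 12, and were named after their values were seen. Eno2, an enolase of neurons, had 265, 90.4, 74.1 and 70.5 in OE infarcted and 498, 458, 411 and 448 in OE sham hearts, against 97.6, 86.6, 75.03 and 134 in WT infarcted and 51.7, 43.4, 49.4 and 77.0 in WT sham hearts (difference of effects -2.90, SE 0.46, adjusted p = 0.023). OE infarcted replicates 2 to 4 lay near the WT level, and replicate 1 lay between it and the OE sham libraries. The count of 12 was 22 with the libraries of at most 3 Sftpc reads, which leaves 1 infarcted library in each genotype, 6 with the lung and thymocyte terms and 0 for RA numbers 1 to 12 alone. Leaving out OE infarcted replicates 1 and 3 gave 21 and 3, and OE sham replicates 1, 2, 3 and 4 gave 1, 4, 1 and 19. Leaving out WT infarcted replicates 1 to 4 gave 36, 52, 3 and 5, and WT sham replicates 1 to 4 gave 5, 2, 20 and 2.

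**Figure D5:**
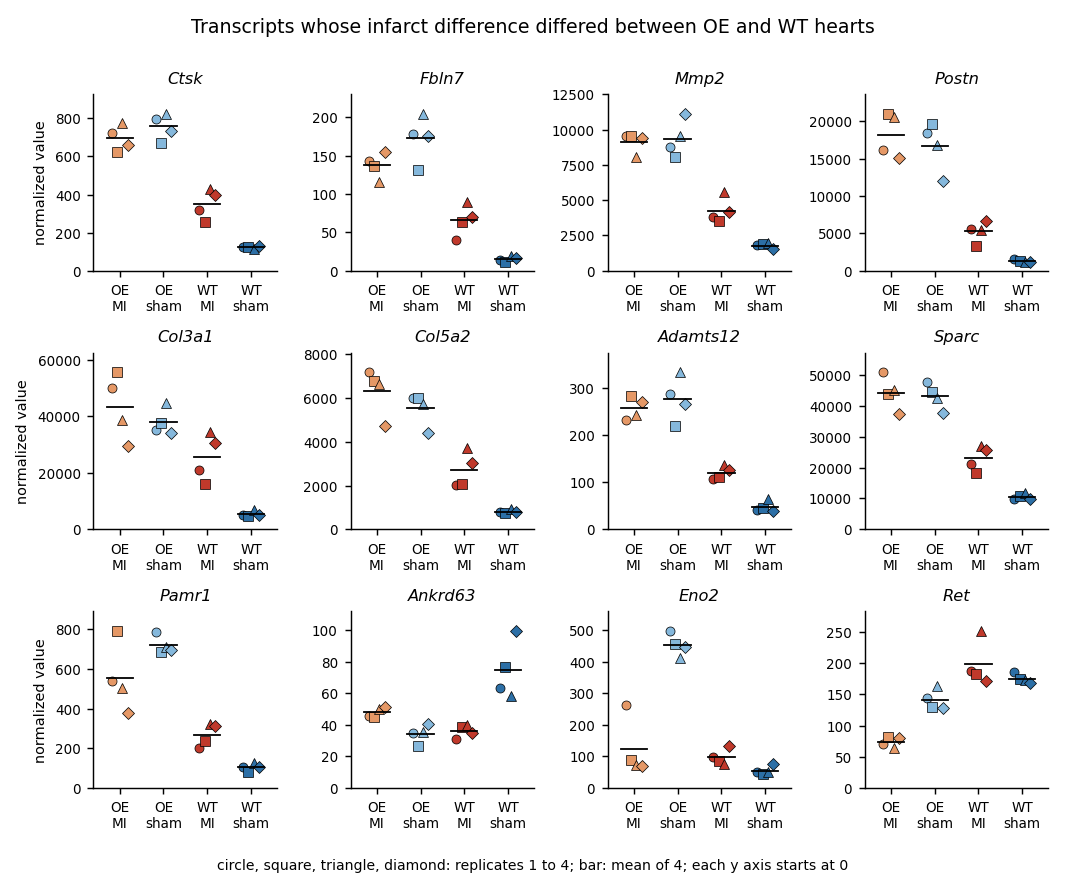
Normalized values of the 12 genes whose infarct difference differed between genotypes, in OE infarcted, OE sham, WT infarcted and WT sham hearts (left to right). Marker shapes are replicates 1 to 4, bars are means of 4 and every y axis starts at 0; for 8 of the 12 (Ctsk, Fbln7, Mmp2, Postn, Adamts12, Pamr1, Sparc and Col5a2) all OE libraries lie above all WT infarcted libraries.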

How the data were processed

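Hearts of 16 mice were sequenced as polyA RNA, 4 animals in each of 4 groups. Per the series design text, reads of 60 nt were trimmed with cutadapt, dropped below 40 nt, subsampled to equal depth, aligned to mm10 with TopHat 2.0.10 and counted on RefSeq genes with HTSeq-count 0.6.1p1. The authors' deposited signal values are counts divided by DESeq2 1.6.3 size factors. The authors' deposited table also gives log2 fold changes and Benjamini-Hochberg p-values from DESeq2, which were used only for the count of their calls.

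Dividing each library by the value of 1 read gave whole numbers for 100% of values (tolerance 0.001), and these recovered reads served the count models, of which edgeR called 995 genes. The values were tested as log2(value + 1) with limma 3.58.1 (intensity trend, 1 mean per group, all 16 libraries, R 4.3.3), and p-values were adjusted over 14298 genes that reached a value of 10 in 4 or more libraries. Fold changes on this scale understate the change of low genes. Tests on single sums were exact permutations of 4 against 4, two-sided. Alternatives used edgeR 4.0.16, DESeq2 1.42.0 and voom, other scalings, filters and pseudocounts, each library left out, and covariates; those for Xist, RA number and adipocyte markers were chosen after seeing the data. The scripts were tested on simulated data. The members of 39 gene lists, of which 715 of 722 genes were found, and the tests were chosen with earlier results of these data known. Genes were named from a panel of 30, from the lists, and as the 10 largest rises and falls among genes past the threshold with a group mean of at least 50 and no overlap. The 6 smallest adjusted p of the genotype comparison were named too. The lists were matched by symbol, and positions and promoters are RefSeq's for GRCm38.p6. The counting is not stated to use strand, so overlapping antisense genes cannot be told apart.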

Additional observations from a re-analysis of the deposited data

Results flagged for a closer look

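In 8 of 246 sets of 4 values, 1 library stood apart from the other 3 by Dixon's criterion (3.25%, where chance gives about 1 in 20). In infarcted libraries these were Tgfbr2 in replicate 4 (2457), Ryr2 in replicate 2 (21980.4), and Oasl2 (401), Saa3 (522) and Col11a1 (214) in replicate 3. In sham libraries they were Napsa in replicate 1 (3.87), Uqcrc1 in replicate 2 (23246) and Bst2 in replicate 3 (233). That sham value for Bst2 lay just under the lowest infarcted value of 234.

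The infarct difference in OE hearts minus that in WT hearts passed its own test for 9 of the genes named by the rule, as log2 differences. It was -2.31 for Fbln7, -2.05 for Col3a1, -1.81 for Postn, -1.60 for Ctsk, -1.51 for Col5a2, -1.43 for Adamts12, -1.26 for Mmp2, -1.09 for Sparc and 1.48 for Ankrd63. For each of the 8 negative genes the OE infarcted and OE sham libraries overlapped.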

How the results depend on the processing

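Against 1008 genes (709 higher, 299 lower), it was 606 (444 and 162) with the 8 WT libraries alone, 1732 (1062 and 670) by DESeq2, 453 (372 and 81) by voom, 21 (20 and 1) with lung and thymocyte covariates, 26 (23 and 3) with at most 3 Sftpc reads and 112 (101 and 11) for RA numbers 1 to 12. The lower genes alone moved to 70 with library totals, 191 with no filter, 165 by edgeR and 144 with the adipocyte covariate. Leaving out 1 library gave 276 to 1871 genes, 242 to 1128 higher and 34 to 743 lower. The 12 genes that differed between genotypes became 152 by DESeq2, 6 with the lung and thymocyte covariates, 22 with at most 3 Sftpc reads, 0 for RA numbers 1 to 12 and 1 to 52 with 1 library left out. With the replicate block the counts were 703 (544 and 159) and 20. Same-numbered WT infarcted and sham libraries deviated with correlations of 0.10, -0.26, -0.08 and 0.19 across genes, so the numbers were not taken as pairs. In each fit that leaves few libraries the lone sample is assumed to vary like the other groups; causes of the other moves were not tested.

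Signs were checked for 123 genes: the panel, leading list members, the largest rises and falls and some others. Of these, 77 were called, and 0 of the 77 changed sign under any alternative that tested them. Of all 709 higher and 299 lower genes, 707 and 298 kept their sign with at most 3 Sftpc reads. These genes were chosen by their calls in the same libraries, so this is a description. Among the checked genes that did not pass, log2 differences with the other sign were as follows. Genes named above but outside this check, such as Wt1, are not covered. Erbb2 was 0.046 with library totals, 0.024 by edgeR, 0.0073 by voom, 0.050 with the Xist covariate, 0.021 with the RA term, and -0.12 to 0.073 with 1 library left out. Nppa was -0.28 with the lung terms and -0.54 with at most 3 Sftpc reads. Acta1 was 0.021 with library totals, 0.27 by edgeR, 0.24 by DESeq2, 0.049 with the lung terms, 0.55 with at most 3 Sftpc reads, 0.30 with the RA term, and -0.56 to 0.32 with 1 library left out. Ankrd1 was 0.057 with library totals, 0.15 by edgeR, 0.12 by DESeq2, 0.018 by voom, 0.41 with the lung terms, 0.70 with at most 3 Sftpc reads, 0.034 for RA numbers 1 to 12, 0.022 with the Xist covariate, 0.11 with the RA term, 0.068 with the adipocyte covariate, and -0.25 to 0.34 with 1 library left out. With at most 3 Sftpc reads Kcnd2 was 0.051, Agt -0.15, Csf3r -0.087 and Mmp9 -0.30, and Mmp9 was -0.38 with the lung terms. Genes near 10 normalized reads are limited by counting error, and 4 libraries a group limit all the others.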
